A study of Mus musculus with 6 samples.

Results

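Endothelial identity and angiogenic receptor genes, 10 in all, were followed in mouse skin: the adhesion and surface genes Pecam1, Cdh5, Emcn and Plvap, the receptor genes Kdr, Flt1 and Tek, the ligand gene Angpt2, the nitric oxide synthase gene Nos3, and the lymphatic gene Lyve1. They were chosen by gene symbol, and all 10 had exactly 1 row in the deposited table of 57010 genes. Skin was taken from 6 mice, labelled wild type, when a diabetic ulcer experiment ended, and each mouse gave 1 library of total RNA. In 3 mice a gel with CST was applied to the skin (the title names cortistatin, a neuropeptide), and in the other 3 the gel carried Yoda1, a synthetic opener of the calcium channel Piezo1. Strain and age are not given in the labels, the model of diabetes and ulcers used was not given in the sources used here, and skin without either drug was not analysed here, so each value sets one treatment against the other. Separate animals are named within a group, so the spread between libraries includes that between mice.

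Endothelial cells line blood and lymph vessels and hold together through junction proteins such as VE-cadherin, the product of Cdh5, and PECAM-1 (CD31). New vessels grow when VEGF-A binds VEGFR2, the product of Kdr, on these cells, while VEGFR1, the product of Flt1, binds the same ligand more tightly and signals less, so that it also acts as a decoy. A second pathway keeps formed vessels stable: angiopoietin-1 activates the receptor TIE2, encoded by Tek, and angiopoietin-2 from Angpt2 is released by activated endothelium and can oppose it. Healing wounds are known for dense, short-lived vessel growth in their granulation tissue.

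The group labels were not separated by any of these genes. All 10 had CST and Yoda1 values that overlapped, so 0 were separated, against a background of 6.59% of the 14588 tested genes with all values of one group above all of the other (4.52% with CST above and 2.08% with Yoda1 above). Levels differed widely between mice of 1 treatment: the sum of the 10 genes was highest in CST mouse 2, at 312 FPKM (fragments per kilobase, corrected for sequencing depth), and lowest in CST mouse 1, at 146 FPKM, within the same treatment. Yoda1 mice 1 and 2 stood at 279 and 262 FPKM, CST mouse 3 at 187 and Yoda1 mouse 3 at 152.

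**Figure D1:**
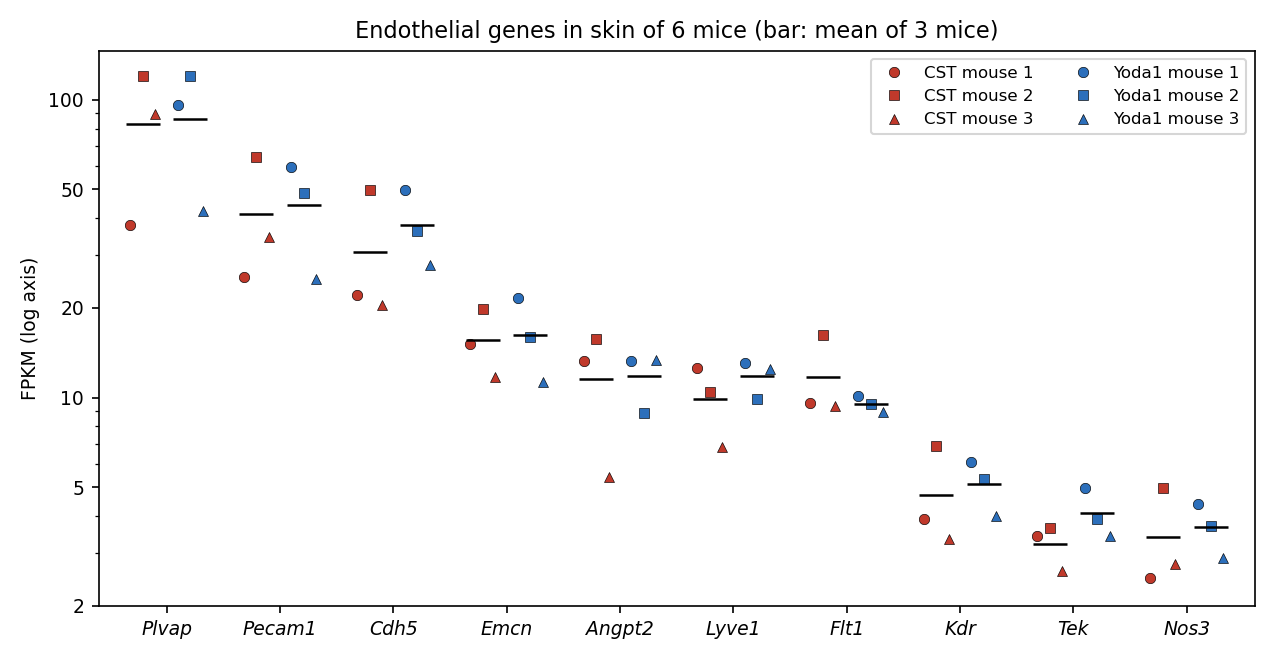
FPKM of the 10 genes (log axis), ordered by mean level, with 1 point per mouse, CST in red and Yoda1 in blue, and a bar at the mean of 3 mice. Points of both colours overlap for every gene, from Plvap at 37.9 to 120 FPKM down to Nos3 at 2.48 to 4.95 FPKM.

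Depth was 23791352 to 29620526 reads per library, as worked out from the spacing of low FPKM values, and the 10 genes held between 234 and 6984 reads per library. At the fewest reads of each gene, counting error alone was 2.35% (Plvap) to 6.54% (Nos3) of the value, while the spread over the 6 libraries, as SD over mean, was 20.9% (Tek) to 43.2% (Plvap). Among the libraries 2 stood apart: mitochondrially encoded genes made up 6.72% (CST mouse 1) and 7.61% (Yoda1 mouse 3) of all FPKM, where the remaining 4 libraries had 3.25% to 3.81%. The labels tag the samples as keratinocytes as well as skin. Keratinocyte markers (8 of 8 tested, summed FPKM 13569 to 19038 in CST and 10481 to 25389 in Yoda1 libraries) were present together with fibroblast markers (6 of 6, 3754 to 6121 and 3616 to 11409) and the vessel genes, so the libraries were read as whole skin.

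Of the surface genes of blood vessel endothelium, Pecam1 lies on chromosome 11 (106654217 to 106750628, GRCm38), and its product joins neighbouring endothelial cells and also sits on platelets and leukocytes. Its level was 25.5, 64.2 and 34.7 FPKM in CST mice 1 to 3 and 59.6, 48.5 and 25.1 FPKM in Yoda1 mice 1 to 3. The high libraries were CST mouse 2 and Yoda1 mice 1 and 2, and the groups overlapped nearly end to end. The change on the log2(FPKM + 1) scale, CST minus Yoda1, was -0.12 (SE 0.42, 95% interval -1.08 to 0.85, limma adjusted p = 1.00), so the interval runs from 0.472-fold to 1.81-fold. Without CST mouse 1 the change was 0.17, and without Yoda1 mouse 1 it was 0.14.

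Cdh5 (chromosome 8, 104101625 to 104144511) encodes the cadherin of endothelial junctions, which other skin cells largely lack. It measured 22.1, 49.9 and 20.5 FPKM in CST mice 1 to 3 and 49.9, 36.3 and 27.8 FPKM in Yoda1 mice 1 to 3. CST mice 1 and 3 lay below all Yoda1 mice and CST mouse 2 was level with the highest. This gave the largest difference of the 10, a log2 change of -0.37 (SE 0.38, 95% interval -1.24 to 0.50, limma adjusted p = 1.00), which was -0.77 without CST mouse 2 and -0.15 without CST mouse 3.

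Emcn (chromosome 3, 137341067 to 137432185) encodes endomucin, a sialomucin of capillaries and veins. Its 15.1, 19.9 and 11.7 FPKM in CST mice 1 to 3 spanned nearly the same range as the 21.6, 16.0 and 11.3 FPKM in Yoda1 mice 1 to 3. The change was -0.04 on the log2 scale (SE 0.30, 95% interval -0.73 to 0.64).

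Plvap (chromosome 8, 71497765 to 71511752) encodes the protein of the diaphragms that close endothelial pores, and it was the most abundant of the 10. Its level in CST mice 1 to 3 was 37.9, 120 and 89.8 FPKM, and in Yoda1 mice 1 to 3 it was 95.9, 120 and 42.3 FPKM. CST mouse 1 and Yoda1 mouse 3, the libraries of high mitochondrial share, were both less than any of the other 4. The highest library held 3.17 times the lowest, the widest range of the 10 genes, with a log2 change between groups of -0.08 (SE 0.51, 95% interval -1.26 to 1.10). Without CST mouse 1 and Yoda1 mouse 3 the change was -0.04 (SE 0.21).

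The receptors are the members on which sprouting and vessel stability turn. The highest library was CST mouse 2 for Kdr and Flt1 and Yoda1 mouse 1 for Tek. Promoters of these receptor genes are shown as a description of sequence, and no link of sequence to these levels was tested. RefSeq promoters on GRCm38.p6, of 300 bases from 250 before to 50 after the start, matched 4 of the 10 genes (Kdr, Flt1, Tek and Emcn). Each runs 5′ to 3′ on the gene's strand, Kdr at chr5:75978406-75978705 (minus), Flt1 at chr5:147725962-147726261 (minus) and Tek at chr4:94739039-94739338 (plus). Capitals mark GGAAGT, a core recognised by ETS factors, or AGATAA, recognised by GATA factors, on either strand; both families are known to bind endothelial genes, and the 2 motifs did not overlap.
Kdr: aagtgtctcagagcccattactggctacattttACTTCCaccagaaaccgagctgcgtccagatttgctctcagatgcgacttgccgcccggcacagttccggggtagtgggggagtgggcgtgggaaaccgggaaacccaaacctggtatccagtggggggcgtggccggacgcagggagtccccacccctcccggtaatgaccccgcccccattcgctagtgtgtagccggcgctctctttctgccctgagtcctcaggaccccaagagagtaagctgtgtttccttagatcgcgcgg
Flt1: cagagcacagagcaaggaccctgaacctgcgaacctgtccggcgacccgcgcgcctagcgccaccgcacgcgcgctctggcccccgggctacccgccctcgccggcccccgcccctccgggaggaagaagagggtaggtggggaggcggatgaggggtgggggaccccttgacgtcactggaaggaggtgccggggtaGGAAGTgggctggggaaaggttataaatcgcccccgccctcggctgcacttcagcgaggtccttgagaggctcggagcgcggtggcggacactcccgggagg
Tek: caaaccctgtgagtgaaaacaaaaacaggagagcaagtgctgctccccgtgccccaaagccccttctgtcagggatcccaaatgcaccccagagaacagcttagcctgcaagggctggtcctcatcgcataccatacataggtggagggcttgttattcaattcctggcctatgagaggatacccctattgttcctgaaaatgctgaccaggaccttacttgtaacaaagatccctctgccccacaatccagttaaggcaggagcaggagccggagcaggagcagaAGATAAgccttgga

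GGAAGT occurred once in the Kdr window and once in the Flt1 window, and in 23.8% of all 32851 RefSeq promoters of this length. AGATAA occurred once in the Tek window and in 11.2% of all promoters. Neither was found in the Emcn window. By base composition the Flt1 window was 70.7% G or C with 29 CG pairs and the Kdr window 60.7% with 19, against 52.0% with 3 for Tek, 41.0% with 2 for Emcn and a median of 52.7% over all promoters. These matches describe the sequence only, and binding was not measured.

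Kdr (chromosome 5, 75932827 to 75978458) measured 3.92, 6.87 and 3.36 FPKM in CST mice 1 to 3 and 6.07, 5.34 and 3.998 FPKM in Yoda1 mice 1 to 3. CST mouse 2 and Yoda1 mice 1 and 2 were again the 3 high libraries. The log2 change was -0.14 (SE 0.29, 95% interval -0.80 to 0.53, limma adjusted p = 1.00). Centred on its mean, the Kdr profile over the 6 libraries differed from the mean profile of the other 9 genes by a root mean square of 0.04 on the log2 scale, the smallest of the 10, and Nos3 followed at 0.08. Plvap, at 0.58, differed most.

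Flt1 (chromosome 5, 147561604 to 147726011) was the 1 gene of the 10 with a higher mean in CST. It measured 9.59, 16.2 and 9.40 FPKM in CST mice 1 to 3 and 10.2, 9.49 and 8.94 FPKM in Yoda1 mice 1 to 3. CST mouse 2 stood apart, and the other 5 lay within 8.94 to 10.2 FPKM. The log2 change of 0.23 (SE 0.25, 95% interval -0.36 to 0.83, limma adjusted p = 1.00) was -0.0032 without CST mouse 2. The deposited values are per gene, so the full-length receptor and the soluble form that Flt1 is known to encode are not separated.

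Tek (chromosome 4, 94739289 to 94874976), the angiopoietin receptor gene, had the smallest unadjusted p of the 10 (0.276 by limma). It measured 3.43, 3.66 and 2.62 FPKM in CST mice 1 to 3 and 4.95, 3.91 and 3.44 FPKM in Yoda1 mice 1 to 3. The lowest Yoda1 mouse, at 3.44 FPKM, lay between the upper CST mice, so the groups overlapped by a narrow margin. Its log2 change was -0.27 (SE 0.23, 95% interval -0.79 to 0.26, limma adjusted p = 1.00), and it stayed between -0.42 and -0.15 over the alternatives in which it was tested. Tek had the smallest SD over mean of the 10 genes, while by highest over lowest library Flt1 had the narrowest range (1.81 against 1.89 for Tek).

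Angpt2 (chromosome 8, 18690263 to 18741562), the ligand that competes for TIE2, lies on the strand opposite Mcph1 without sharing exon bases. Its level was 13.3, 15.8 and 5.41 FPKM in CST mice 1 to 3 and 13.2, 8.89 and 13.4 FPKM in Yoda1 mice 1 to 3. Here CST mouse 3 was the low library, and CST mouse 1 and Yoda1 mouse 3, low for Pecam1 and Plvap, were among the high ones. The log2 change of -0.13 (SE 0.38, 95% interval -1.01 to 0.75) was 0.29 without CST mouse 3.

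Nos3 (chromosome 5, 24364810 to 24384474) encodes the endothelial nitric oxide synthase, which relaxes vessels. It measured 2.48, 4.95 and 2.77 FPKM in CST mice 1 to 3 and 4.41, 3.70 and 2.89 FPKM in Yoda1 mice 1 to 3, the same order of mice as for Kdr except that CST mice 1 and 3 changed places. The log2 change was -0.11 (SE 0.28, 95% interval -0.76 to 0.53). On the opposite strand the exons of Atg9b share 294 bases and those of the antisense gene Gm15587 share 1040 bases with Nos3; with the strand setting of the counting not given in the sources used here, reads of these genes cannot be told apart.

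Lyve1 (chromosome 7, 110850607 to 110863239) encodes the hyaluronan receptor of lymphatic endothelium, which some tissue macrophages also carry. It measured 12.5, 10.4 and 6.80 FPKM in CST mice 1 to 3 and 13.1, 9.88 and 12.5 FPKM in Yoda1 mice 1 to 3. CST mouse 3 was low and the other 5 lay within 9.88 to 13.1 FPKM. The log2 change of -0.26 (SE 0.26, 95% interval -0.87 to 0.35) was -0.04 without CST mouse 3.

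As a set, 9 of the 10 genes had a lower mean in CST, as did 52.8% of all tested genes, and the median log2 change was -0.12 against -0.01 over all tested genes. None of the 10 passed the threshold by limma (background 0.00%), none had an unadjusted p under 0.05 (background 3.21% with CST higher and 0.788% with CST lower). On the recovered reads limma-voom also gave 0 and 0 (background 4.01% at an unadjusted p under 0.05). Without CST mouse 2 Cdh5 had an unadjusted p of 0.0421 by limma, as 4.05% of all tested genes had one under 0.05. Their count of higher genes depended on single libraries: without Yoda1 mouse 1 there were 5 of 10 higher in CST (median -0.01), after removal of CST mouse 1 or CST mouse 3 there were 4, without Yoda1 mouse 2 there were 2, and without CST mouse 2 there were 0 (median -0.37). Without CST mouse 1 and Yoda1 mouse 3 together 1 was higher (Flt1, 0.31) and the median was -0.19, with a smallest limma adjusted p of 0.534. The log2 changes were then -0.18 for Pecam1, -0.40 for Cdh5, -0.26 for Emcn, -0.04 for Plvap, -0.19 for Kdr, -0.40 for Tek, -0.19 for Angpt2, -0.09 for Nos3 and -0.39 for Lyve1, so Emcn moved most, from -0.04. With library weights estimated by limma, 3 genes (Tek, Flt1 and Lyve1) had an unadjusted p under 0.05, near the share of 29.0% over all tested genes in that fit, and none passed the threshold, which 9.24% of all genes did (smallest limma adjusted p = 0.0913 for Tek). The weights were 12.8, 0.657 and 0.193 for Yoda1 mice 1 to 3, so the Yoda1 side of that fit rests mostly on 1 mouse. Markers of other tissue also differed in mean between the groups. Skeletal muscle genes (9 of 9 tested) were all higher in CST with no overlap, as were 4.52% of all tested genes. Their median log2 change was 3.97 (2.69 to 5.47 with each library left out). They summed to 5924 to 10916 FPKM in CST and 94.8 to 4205 FPKM in Yoda1 libraries, and 0 of them passed the limma threshold. Adipocyte genes were lower by mean in CST in 6 of 6 (median -0.69, and -0.01 without Yoda1 mouse 1), with sums of 306 to 419 and 375 to 1413 FPKM. Fibroblast genes were lower by mean in 6 of 6 (median -0.58, with -0.31 without Yoda1 mouse 1 and -1.05 without Yoda1 mouse 3), and keratinocyte genes higher in 7 of 8 (median 0.16, and -0.05 without Yoda1 mouse 1). With FPKM rescaled to the sum without mitochondrial, muscle and haemoglobin genes, 1 of the 10 genes was again higher and their median was -0.14; beyond this the part of muscle, fat and fibroblast RNA was not tested. In bulk tissue fewer endothelial cells and less RNA per endothelial cell cannot be told apart.

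**Figure D2:**
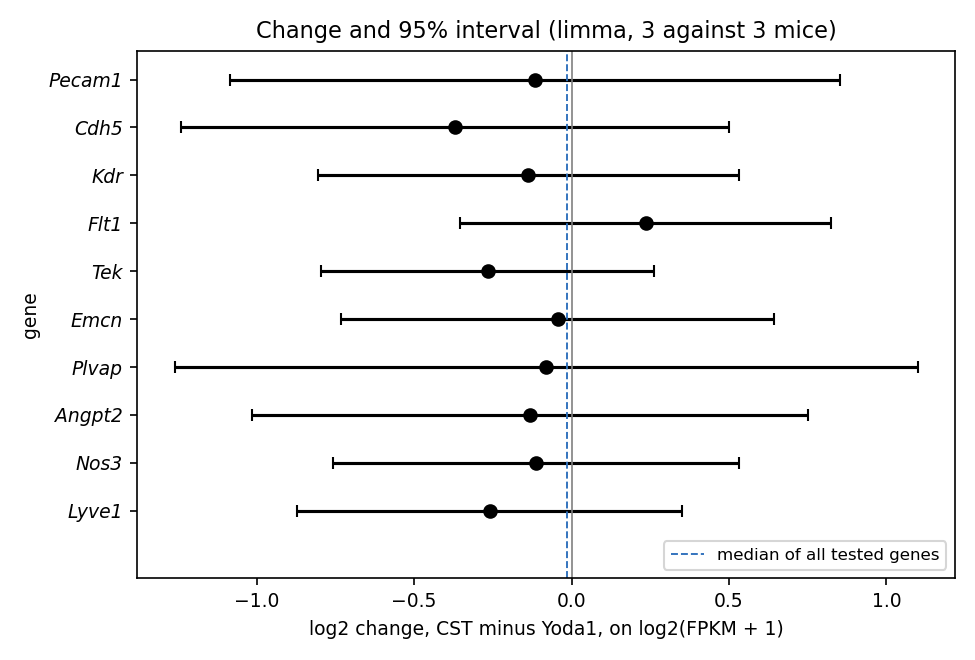
Log2 change, CST minus Yoda1, of each gene on the log2(FPKM + 1) scale (points) with its 95% interval from limma, 3 mice against 3; the dashed line is the median of all tested genes, -0.01. Every interval includes 0, and the widest, of Plvap, runs from -1.26 to 1.10.

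In 7 of the 10 genes the highest library was CST mouse 2 and in the other 3 (Tek, Emcn and Lyve1) it was Yoda1 mouse 1, whereas over all tested genes these libraries were highest in 14.2% and 19.6%. The lowest library was CST mouse 3 in 5 genes, Yoda1 mouse 3 in 3 and CST mouse 1 in 2, and over all tested genes these were lowest in 17.7%, 29.1% and 24.5%. As a mean over the 10 genes, log2(FPKM + 1) stood 0.42 above its 6-library mean in CST mouse 2, 0.34 above in Yoda1 mouse 1 and 0.09 above in Yoda1 mouse 2, with -0.25, -0.36 and -0.23 for CST mouse 1, CST mouse 3 and Yoda1 mouse 3. Angpt2 and Lyve1 departed from this mean profile: in CST mouse 1 they stood at 0.24 and 0.22 and in Yoda1 mouse 3 at 0.25 and 0.21, where Pecam1 stood at -0.64 and -0.66.

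**Figure D3:**
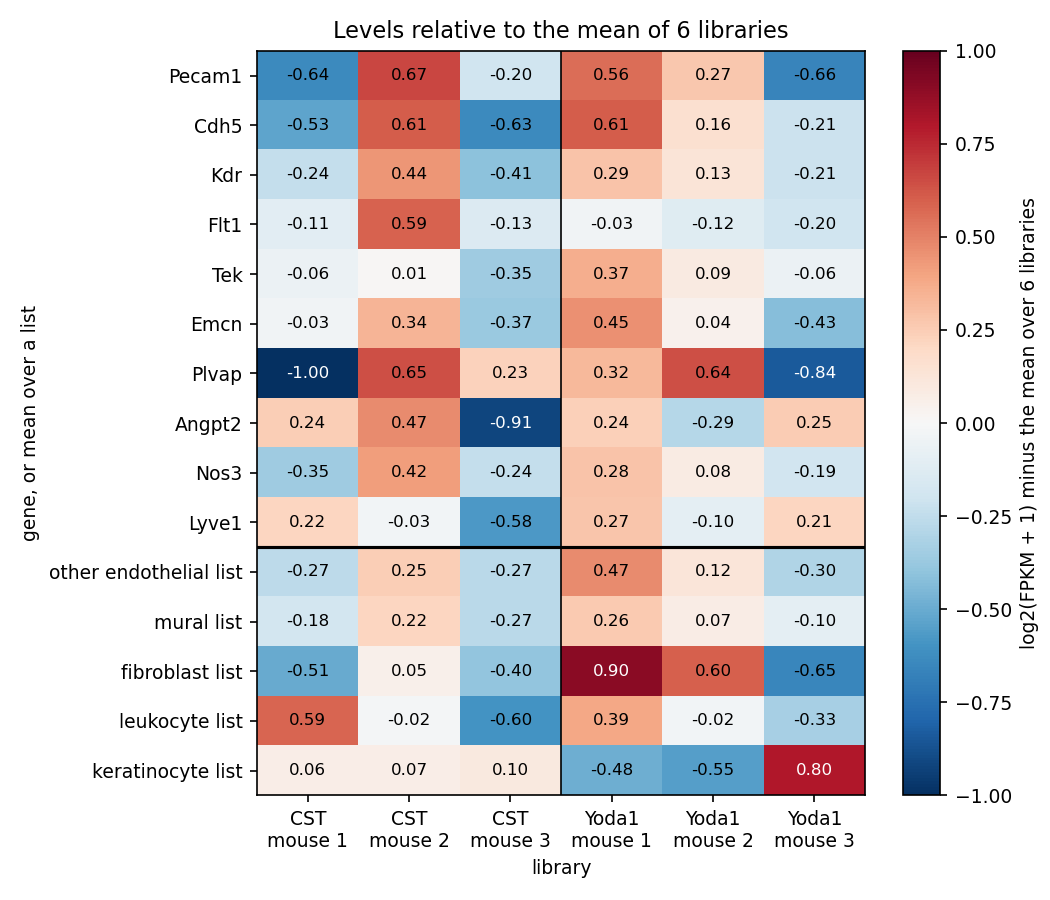
Log2(FPKM + 1) minus its mean over the 6 libraries for each of the 10 genes, and below the line the mean over 5 marker lists; columns are libraries and red is above the mean. CST mouse 2 is at 0.34 or more in 8 of the 10 genes, while Tek and Lyve1 are at 0.01 and -0.03 there.

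Other genes typical of endothelial cells, 24 of 24 tested, had a list mean above 0 in CST mouse 2 and Yoda1 mice 1 and 2 and below 0 in the other 3 libraries. The list means were -0.27, 0.25 and -0.27 over CST mice 1 to 3 and 0.47, 0.12 and -0.30 over Yoda1 mice 1 to 3. Single genes differed from this: the highest library was Yoda1 mouse 1 in 13, CST mouse 2 in 6, Yoda1 mouse 2 in 2, Yoda1 mouse 3 in 2 and CST mouse 1 in 1. Of the 24 genes, 21 were lower and 3 higher in CST by mean, with a median of -0.22, and 0 passed the limma threshold. Their direction also rested on single libraries: 13 were lower without Yoda1 mouse 1 (median -0.02), while leaving out CST mouse 3 gave a median of -0.06 and leaving out Yoda1 mouse 3 gave -0.42. At an unadjusted p under 0.05 there was 1 gene in each direction, against 3.21% (higher) and 0.788% (lower) of all tested genes. Rasip1, a Ras-interacting protein needed to open vessel lumens, measured 15.4, 13.9 and 12.3 FPKM in CST mice 1 to 3 and 10.1, 8.95 and 4.41 FPKM in Yoda1 mice 1 to 3. Clec14a, a C-type lectin of endothelium, measured 1.52, 1.27 and 1.08 FPKM in CST mice 1 to 3 and 2.87, 2.17 and 2.17 FPKM in Yoda1 mice 1 to 3. Both had groups that did not overlap, 1 in each direction among the 24 genes. Over all tested genes 6.59% had no overlap (4.52% with CST above and 2.08% with Yoda1 above). The limma adjusted p was 0.959 for Rasip1 and 0.968 for Clec14a.

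Among ligands and partner receptors of the VEGF and angiopoietin pathways, 11 of 12 were tested (Angpt4 lay below the filter), 0 passed and 0 had an unadjusted p under 0.05, with 7 lower and 4 higher in CST and a median log2 change of -0.25, which was -0.01 without Yoda1 mouse 1 and -0.15 without CST mouse 1. The ligand side had the smallest p: placental growth factor Pgf, a ligand of VEGFR1, had a log2 change of 0.48 (SE 0.25) with 6.99, 6.14 and 4.25 FPKM in CST mice 1 to 3 and 4.72, 3.65 and 3.14 FPKM in Yoda1 mice 1 to 3. Vegfc, which drives lymphatic growth, had a log2 change of -0.45 (SE 0.30), and Angpt1, the activating ligand of TIE2, one of -0.39 (SE 0.26). Ptprb, the endothelial phosphatase that restrains TIE2, had one of -0.47 (SE 0.26). None of these 4 passed the limma threshold (adjusted p = 1.00 for each). Vegfa, outside these 4, measured 87.1, 63.4 and 47.4 FPKM in CST mice 1 to 3. In Yoda1 mice 1 to 3 Vegfa measured 40.9, 28.5 and 73.5 FPKM, a lower mean with overlap between the groups.

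Genes of tip cells, Notch signalling and arteries split evenly, with 8 higher and 8 lower of 16 tested and a median of 0.04, which turned to -0.07 when CST mouse 2 was left out and to -0.10 when Yoda1 mouse 2 was. Cxcr4, with the smallest unadjusted p of this list (0.176 by limma), was higher by mean in CST, at a log2 change of 0.51 (SE 0.34). Among the lower genes, Dll4, the Notch ligand of tip cells, had a log2 change of -0.28 (SE 0.24), and Apln, a peptide ligand made by sprouting cells, one of -0.58 (SE 0.42). Adhesion genes of activated endothelium were lower by mean in CST in 6 of 6 tested, with a median of -0.27 and 0 past the threshold; 4 were lower without CST mouse 1 or Yoda1 mouse 2, and 3 with library weights (median -0.09). Vcam1, which leukocytes grip, stood at 6.37, 11.9 and 5.60 FPKM in CST mice 1 to 3 and at 15.6, 13.4 and 8.76 FPKM in Yoda1 mice 1 to 3, overlapping in CST mouse 2. The list of binding partners and regulators of the nitric oxide synthase had 7 of 10 lower in CST, and 0 passed the threshold. Its median was -0.16, and -0.09 without CST mouse 3. The list also held Nos2, which encodes a separate nitric oxide synthase and is not a partner of the endothelial enzyme. Nos2 had the smallest p and was higher in CST with overlap (log2 change 0.94, SE 0.38, unadjusted p = 0.0401 by limma). It was the 1 gene of this list with an unadjusted p under 0.05, against 3.21% of all tested genes with CST higher. Cav1, the caveolin that holds the endothelial enzyme inactive, measured 215, 227 and 180 FPKM in CST mice 1 to 3. In Yoda1 mice 1 to 3 it measured 452, 283 and 241 FPKM. It was highest in Yoda1 mouse 1, as were 6 of 6 adipocyte, 6 of 6 fibroblast and 13 of the 24 other endothelial genes. The cell type behind the Cav1 level was not tested. These Cav1 values did not overlap (log2 change -0.60, SE 0.28, limma adjusted p = 1.00), as in 2.08% of all tested genes with all Yoda1 values above.

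Cell types that surround or resemble endothelium varied beside these genes. Mural cell markers (11 of 11 tested, 10 lower in CST, median -0.21, but 7 lower without CST mouse 1 or Yoda1 mouse 1, and a median of -0.09 without CST mouse 3 and -0.35 without CST mouse 2) had summed levels of 264, 462 and 284 FPKM in CST mice 1 to 3 and 485, 463 and 353 FPKM in Yoda1 mice 1 to 3, with CST mouse 2 again the highest CST library. Lymphatic genes other than Lyve1 (6 of 8 tested, median -0.27) summed to 131 to 191 FPKM in CST and 120 to 234 in Yoda1 libraries. By mean all 6 were lower in CST, but 3 were lower without CST mouse 3 or Yoda1 mouse 1, and 4 without Yoda1 mouse 2. Most of each sum was Pdpn (71.3 to 130 FPKM) and Ccl21a (22.2 to 92.1 FPKM). Prox1, the transcription factor that defines lymphatic endothelium, stood at 0.194 to 0.668 FPKM, below the filter. Markers of resident macrophages that can carry Lyve1 (6 of 7 tested) summed to 459 to 555 FPKM in CST and 224 to 1030 in Yoda1 libraries, lowest in Yoda1 mouse 3, where Lyve1 itself was at 12.5 FPKM. Platelet markers, of which 3 of 6 passed the filter, summed to 222 to 487 FPKM in CST and 74.7 to 488 in Yoda1 libraries. Most of each sum was Pf4 (66.5 to 464 FPKM), while Gp9, Gp1ba and Gp6 lay below the filter, at 0.410 FPKM or less. Leukocyte markers (9 of 9) summed to 1899 to 10995 FPKM in CST and 1219 to 4230 FPKM in Yoda1 libraries. S100a8 and S100a9 made up most of each sum, with 3066 and 7553 FPKM in CST mouse 1. By mean, 6 of the 9 leukocyte markers were lower in CST. Their median log2 change was -0.25 (-0.56 to 0.11 with each library left out). Platelets and leukocytes both carry Pecam1. No marker of these lists was at 0 in all libraries. Their part in the levels of Pecam1 and Lyve1 was not tested.

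Levels within a library were then set relative to endothelial RNA, as the ratio of each gene's FPKM to the geometric mean of Pecam1 and Cdh5, which was 23.7, 56.6 and 26.7 FPKM in CST mice 1 to 3 and 54.5, 42.0 and 26.4 FPKM in Yoda1 mice 1 to 3. An exact two-sided permutation test of 3 libraries against 3 cannot give a p below 0.1, and none of the 8 ratios reached it (exact p from 0.2 to 1.0, adjusted over the 8 to 1.00 for each). Flt1 had the largest difference, 0.51 on the log2 scale, with ratios of 0.404, 0.287 and 0.352 for CST mice 1 to 3 and 0.186, 0.226 and 0.339 for Yoda1 mice 1 to 3 (exact p = 0.2). With each library left out, that difference ran from 0.31 (without Yoda1 mouse 1) to 0.75 (without Yoda1 mouse 3). Without CST mouse 1 it was 0.39, and there Lyve1 (-0.47) and Plvap (0.42) differed more. The Angpt2 ratio ran from 0.203 to 0.561 and was highest in CST mouse 1 (0.561) and Yoda1 mouse 3 (0.507), with the other 4 between 0.203 and 0.279. Lyve1 gave the same picture, with 0.528 and 0.474 in those 2 libraries and 0.184 to 0.255 in the others. Those are also the libraries of high mitochondrial share, and without them the log2 differences were 0.07 for Angpt2, -0.13 for Lyve1 and 0.63 for Flt1. By contrast the Nos3 ratio stayed within 0.0808 to 0.109 and the Kdr ratio within 0.111 to 0.165 across all 6 libraries.

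The 2 VEGF receptors were set against each other, a ratio chosen after their values were seen and so given as a description with no test. Flt1 over Kdr was 2.45, 2.36 and 2.80 for CST mice 1 to 3 and 1.67, 1.78 and 2.24 for Yoda1 mice 1 to 3, a mean of 2.54 ± 0.230 against 1.89 ± 0.301 (SD, n = 3). All CST ratios lay above all Yoda1 ratios, as did 1 group above the other in 5 of the 45 ratios that the 10 genes can form (11.1%), 4 of them with Flt1. The log2 difference of 0.43 was 0.34 to 0.55 with each library left out in turn. For ligand over receptor, Angpt2 over Tek was 3.88, 4.32 and 2.07 for CST mice 1 to 3 and 2.67, 2.27 and 3.89 for Yoda1 mice 1 to 3, with overlap between the groups.

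**Figure D4:**
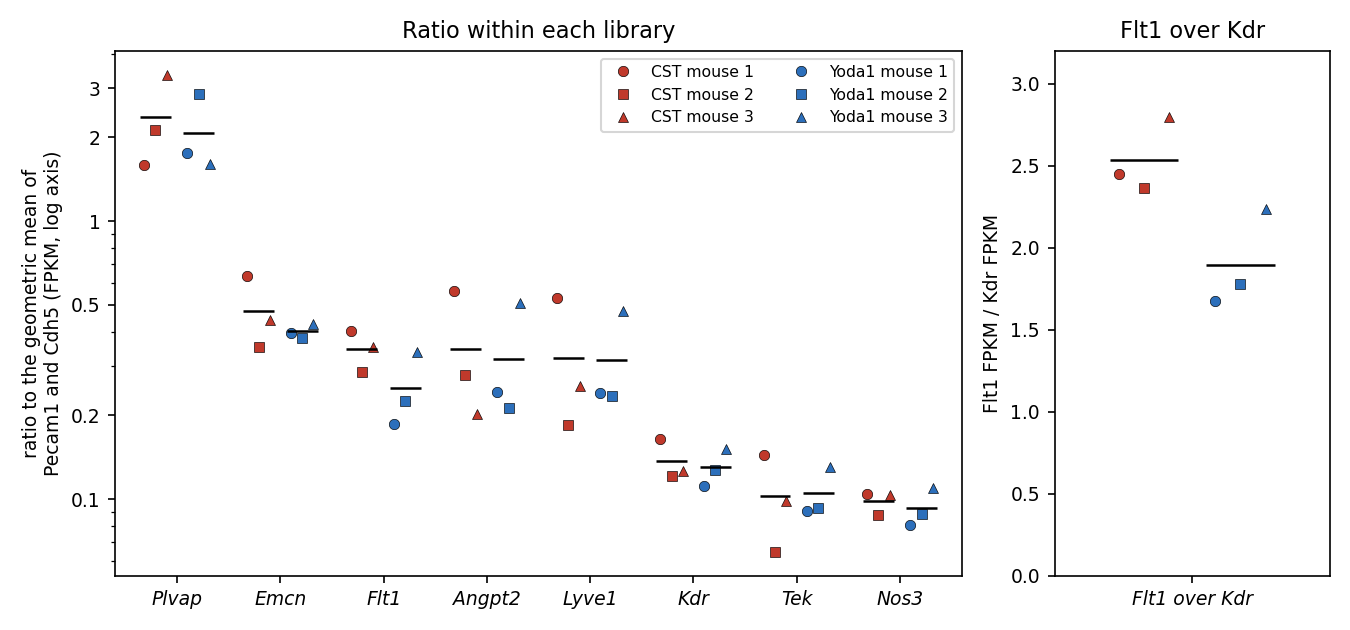
Left, FPKM of 8 genes divided by the geometric mean of Pecam1 and Cdh5 in the same library (log axis); right, Flt1 FPKM over Kdr FPKM (axis from 0); 1 point per mouse, CST in red and Yoda1 in blue, bars at the mean of 3 mice. Angpt2 and Lyve1 are highest in CST mouse 1 and Yoda1 mouse 3, and Flt1 over Kdr is 2.36 to 2.80 in CST and 1.67 to 2.24 in Yoda1 mice.

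By mean FPKM over the 6 libraries the order was Plvap (84.3), Pecam1 (42.9), Cdh5 (34.4), Emcn (15.9), Angpt2 (11.7), Lyve1 (10.9), Flt1 (10.6), Kdr (4.93), Tek (3.67) and Nos3 (3.53). Plvap exceeded Pecam1, Cdh5 exceeded Emcn, Flt1 exceeded Kdr and Kdr exceeded Tek in 6 of 6 libraries. Neighbours that changed places between libraries were Pecam1 and Cdh5 and also Emcn and Angpt2 (5 of 6 each), and Angpt2 and Lyve1, Lyve1 and Flt1, and Tek and Nos3 (4 of 6 each), so their order is within the spread. This order also rests on the gene lengths behind the FPKM. The deposited values imply a length of 2989 bases for Flt1, whose annotated exons cover 13504 bases in GENCODE M21, and of 4374 for Kdr, whose exons cover 9030, while for Plvap both were 1987. With exon lengths in place of the implied ones Flt1 would stand at 2.35 and Kdr at 2.39 FPKM, the lowest 2 of the 10. The FPKM of 1 gene, or 1 ratio, compared between libraries does not depend on these lengths, but the log2(FPKM + 1) changes do, since the added 1 weighs more at low FPKM: with 0.1 added instead, the value for Tek went from -0.27 to -0.33 and that for Kdr from -0.14 to -0.17.

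The 5 genes outside the 10 whose centred profile lay nearest to the mean profile of the 10 over the 6 libraries were Gimap6, Tgfbi, Rasl12, Zdhhc24 and Inppl1, with root mean square differences of 0.06 to 0.07 on the log2 scale, where the profile itself had a root mean square of 0.30. Gimap6 encodes a GTPase of the immunity-associated family, and measured 8.31, 12.2 and 6.70 FPKM in CST mice 1 to 3 and 12.0, 10.1 and 7.58 FPKM in Yoda1 mice 1 to 3. Tgfbi, an extracellular matrix protein induced by TGF-beta, measured 199, 321 and 166 FPKM in CST mice 1 to 3 and 300, 260 and 201 FPKM in Yoda1 mice 1 to 3. In all 5 CST mouse 2 was the highest library. This follows largely from their selection, since the mean profile of the 10 genes was itself highest in CST mouse 2. None of the 5 was on any of the 15 gene lists.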

How the data were processed

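The authors deposited 1 table of FPKM values for 57010 genes in 6 libraries; per the submitters' processing notes the builds are GRCm38 and mm10; aligner, counter and strandedness: not given in the sources used here. Positions come from GENCODE M21 (GRCm38) by gene identifier, since 2.81% of 52029 deposited starts equalled it. Depth was taken from genes spanning at most 400 bases, where 1 read gives a fixed FPKM step; 30696 of 30697 genes above 0 then gave whole reads within 0.001. Counting errors at a given depth cover read sampling only, while the 95% intervals are limma's and come from the spread between mice. The test was limma 3.58.1 in R 4.3.3 (eBayes, variance trend) applied to log2(FPKM + 1), CST minus Yoda1, two-sided, over 14588 genes whose mean FPKM reached 1, with Benjamini-Hochberg adjustment over all of them and a threshold of 0.05; all 10 genes passed the filter. The log2(FPKM + 1) scale understates changes of low genes. No scaling was added. Ratios used an exact permutation over libraries. Named genes are the 10, up to 4 genes of smallest p per list, the 5 nearest profiles, marker genes and Vegfa. The members and the 15 lists were chosen with earlier results of these data known. The limma procedure was tested on simulated data. Alternatives covered pseudocount, filter, scaling, variance model, library weights, recovered reads, the mouse number as a block and libraries left out.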

Additional observations from a re-analysis of the deposited data

How the results depend on the processing

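Limma called 0 genes in total with all 6 libraries, 0 to 136 with each library left out in turn (136 without Yoda1 mouse 2, 8 without CST mouse 2) and 1348 with library weights; none of these calls was 1 of the 10 genes. The fit with library weights put 12.8 on Yoda1 mouse 1 and 0.193 on Yoda1 mouse 3, so its Yoda1 side rests mostly on 1 mouse. The number of the 10 that were higher in CST was 1, and it was 2 with library weights and 0 to 5 with each library left out; their median change ran from -0.37 to -0.01 over those. With library weights Plvap had a log2 change of 0.091. With each library left out the log2 change ran from -0.48 to 0.17 for Pecam1, -0.39 to 0.033 for Kdr, -0.0032 to 0.36 for Flt1, -0.27 to 0.17 for Emcn, -0.52 to 0.40 for Plvap, -0.40 to 0.29 for Angpt2 and -0.35 to 0.036 for Nos3, while Cdh5, Tek and Lyve1 stayed below 0. Of the ratios to Pecam1 and Cdh5, left-out libraries gave log2 differences of -0.32 to 0.48 for Angpt2, -0.027 to 0.40 for Emcn, -0.062 to 0.19 for Kdr, -0.12 to 0.42 for Plvap, -0.47 to 0.29 for Lyve1 and -0.38 to 0.20 for Tek; quantile normalization gave -0.0086 for Kdr and -0.013 for Nos3. Angpt2 over Tek differed by -0.017 to 0.51. The cause of these changes was not tested beyond the removal of a library itself. With the mouse number as a replicate block limma called 0 genes and the median of the 10 was -0.12. Same-numbered mice deviated from their group means with correlations of -0.08, 0.21 and -0.20, and CST mouse 2 was the 1 mouse of 6 that correlated best with its own number. With 3 mice per group these correlations cannot decide whether the numbers pair animals, which the labels do not state. Kdr, Tek and Nos3 fell out of the test at a mean of at least 5 FPKM. Scaling by other means, the pseudocount and the variance model changed no direction among the 10 log2 changes.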
